A study of Mus musculus with 6 samples.

Results

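Glutamate receptors and the proteins that anchor and regulate them were followed in hippocampal RNA as 29 member genes of the 55421 genes in the table. The members were chosen by gene name, as AMPA, NMDA and kainate receptor subunits, metabotropic receptors, and Neto and Homer partners. *Grip1*, *Pick1* and *Grina* were also on the list and belong to none of these classes: the first pair bind AMPA receptor tails and *Grina* encodes a membrane protein named for an association with NMDA receptors. The RNA came from wild-type male C57BL/6N mice aged 8 to 10 weeks. The SP group of 3 mice received substance P subcutaneously (10 µM in 100 µL) for 14 days, and the vehicle group of 3 mice received the same volume of saline. Each mouse gave 1 library of hippocampal RNA. The libraries labelled vehicle held 23105903, 24560605 and 27605935 estimated counts, and those labelled SP held 23608419, 24284625 and 22349964. Every direction below compares the SP columns with the vehicle columns as they are labelled. The text of the study gives *Gsg1l*, *Cbln4* and *Mef2c* as upregulated, whereas in the columns used here they had log2 fold changes of -0.60, -0.92 and -0.44 under the SP label. The study also gives *Mag* and *Mbp*, which it links to myelination, as downregulated. Of 5 oligodendrocyte markers given below, 4 were higher under the SP label at an unadjusted p under 0.05 in edgeR, beside 4.48% of tested genes. The 5 markers had FDRs from 0.351 to 0.526, and only 2 of them had such a p without replicate 2. The cause was not tested, and if the labels of the columns were exchanged, every direction below would be turned.

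Glutamate released at excitatory synapses opens AMPA receptors, which carry most of the fast current, and NMDA receptors, whose calcium entry starts long-term potentiation. Kainate receptors are related channels with a strong role at mossy fiber synapses onto CA3 cells, and metabotropic receptors signal through G proteins. Homer proteins tie group I metabotropic receptors to other proteins of the postsynaptic density, and the Neto proteins are auxiliary subunits of kainate receptors.

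The members lay over a wide range of levels. Levels are given as CPM, the estimated counts scaled by edgeR to a common library size, and between genes as CPM per kb of exon. On that scale *Grina* and *Gria1* were highest with means over the 6 libraries of 187 ± 6.67 and 165 ± 12.0 (SD). *Gria2* with 59.4 ± 1.89 and *Grin1* with 53.4 ± 2.55 CPM per kb came next, followed by *Grik5*, *Grm5*, *Grin2b*, *Gria3*, *Neto1*, *Grin2a* and *Homer3*. *Grm8* was lowest with 0.720 ± 0.233 CPM per kb, below *Grm4*, *Grik1* and *Grin2d*. Of the 28 pairs of neighbours in this order, 14 stood in the same order within each of the 6 libraries, among them *Grina* above *Gria1*, *Gria1* above *Gria2* and *Grm4* above *Grm8*. The other 14 pairs were turned in at least 1 library. The order also depended on the length used. With the longest transcript in place of all exons 10 pairs were turned, with *Grin1* at 121 above *Gria2* at 89.1 and *Gria3* at 38.6 above *Grin2b* at 25.1 CPM per kb, while *Grina* and *Gria1* stayed highest and *Grm8* lowest. The fewest counts of any member in a library were the 98 of *Grm8* in SP 2, while a count of 0 would allow up to 0.109 to 0.135 CPM at these depths. That limit is 3 counts of each library and covers counting error only.

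**Figure D1:**
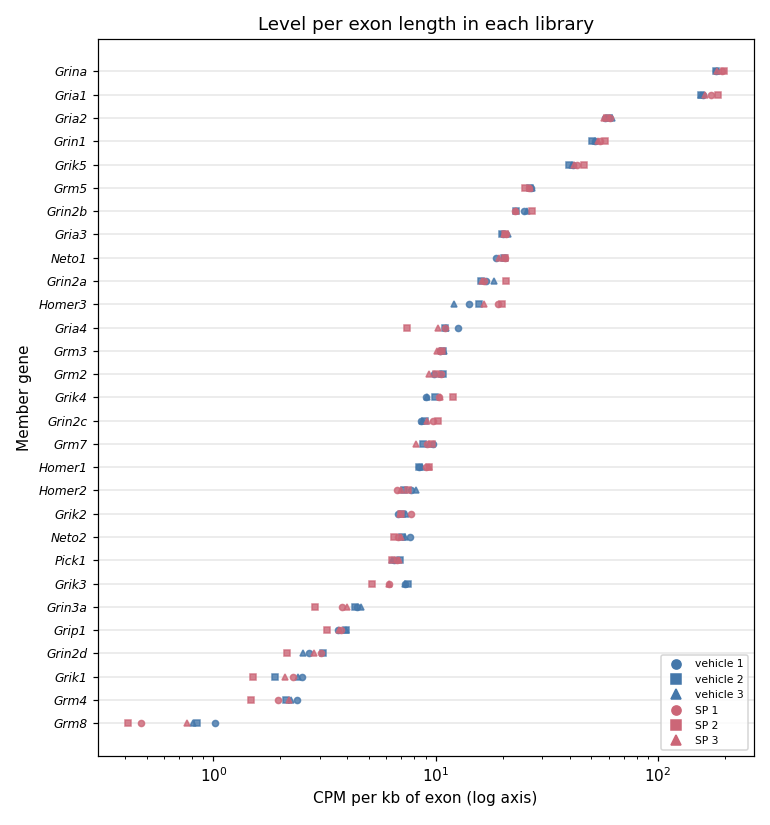
Level of each member in CPM per kb of exon on a log axis, with 1 point for each of the 6 libraries (blue for vehicle, red for SP, and a marker shape for each replicate number). *Grina* and *Gria1* lie highest, and the red points of *Grm8* reach down to the lowest value, 0.411 CPM per kb in SP 2.

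Library SP 1 stood apart from the others in markers of tissue beside the hippocampus. The 5 choroid plexus markers, with *Ttr* the most abundant, summed to 3826, 3753 and 4675 CPM in vehicle 1, 2 and 3 and to 169, 2761 and 3910 CPM in SP 1, 2 and 3, and 3 of 5 were lower in the SP libraries at an unadjusted p under 0.05 in the edgeR fit described below. All 5 were lower in 3 of 3 pairs and had such a p without replicate 1. There the log2 fold change of *Ttr* was -0.35 in place of -1.58, so much of the size rested on SP 1. Within the pairs the direction did not rest on SP 1 alone. Across pairs the sums overlapped, with SP 3 above vehicle 1 and vehicle 2. In edgeR without the block *Kcnj13* had such a p, while *Ttr*, *Folr1*, *Kl* and *Clic6* did not. The 7 cerebellar markers summed to 8.98, 9.90 and 9.80 CPM against 34.2, 8.97 and 11 CPM, with *Slc1a6* the most abundant in total and 3 of the 5 tested higher at such a p, but 0 of 4 tested without replicate 1. *Gabra6*, *Pcp2* and *Barhl1* of this list each had a count of 0 in at least 1 library. *Pcp2*, 1 of those 3 higher genes, had 0, 3 and 3 counts in the vehicle libraries and 56, 7 and 14 in the SP libraries. It passed the count filter only through SP libraries, so its p cannot be read as a difference between the groups. Without replicate 1 it was not tested. Library SP 2 was often the extreme one among the members, being the lowest of the 6 libraries in 11 of 29 and the highest in 9. Of the 10 members named below for an unadjusted p under 0.05, it was lowest in 6 and highest in 3. Leaving out SP 1 alone, without the block, gave 0 members called beside 0.0398% of tested genes, and 8 members with such a p beside 10.5% of tested genes. Leaving out SP 2 alone gave 0 called beside 0.0228%, and 7 with such a p beside 11.5%. The part of these markers in the members' values was not tested further.

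Between the groups, 0 of 29 members passed FDR < 0.1 and |log2FC| > 0.3 in edgeR's quasi-likelihood test with the replicate number as a block, where 0.0293% of all 17069 tested genes passed. All 29 members were among the genes tested. An unadjusted p under 0.05 was found for 10 members, 34.5% of them, against 10.1% of all tested genes. Of these, *Homer3*, *Grik4*, *Grin2c* and *Homer1* were higher in the SP libraries, a direction found with such a p in 4.48% of tested genes, and *Grik3*, *Grin3a*, *Grm8*, *Gria4*, *Grik1* and *Grm4* were lower, against 5.59%. These counts rested on the block. Without it 10 members again had such a p, but *Gria4*, *Grik1* and *Grm4* were replaced by *Gria1*, *Grin1* and *Neto2*, so that 6 were higher, beside 6.06% of tested genes, and 4 lower, beside 5.85%. In 8 members every SP library was above every vehicle library, where this held for 9.19% of tested genes, and in 5 every SP library was below, against 9.03%. Without replicate 1 the members with such a p numbered 6 of 29, beside 5.93% of all genes tested in that fit. Without vehicle 1 alone and without vehicle 3 alone they numbered 5, beside 7.5% and 6.99%. The median log2 fold change (log2FC, given with its standard error, SE, below) was -0.021 over the members, beside 0.0015 for all tested genes, and it was -0.048 without replicate 1 and 0.020 without replicate 3, with single members from -0.72 for *Grm8* to 0.41 for *Homer3*. Fewer cells of a type and less RNA per cell cannot be told apart in this bulk tissue.

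The number of members called depended on the test. DESeq2 with the replicate block called 1 member, *Homer3*, beside 0.211% of all tested genes, and DESeq2 without the block called *Homer3*, *Grik3*, *Grm8* and *Grin3a*, beside 0.779%. With no filter on low counts edgeR called 5 members, these 4 and *Gria4*, beside 1.37% of all genes tested in that fit. Without both mice of replicate 3 it called *Grm8*, beside 0.215%, and without SP 3 alone and no block it called *Homer3*, *Grik3* and *Grm8*, beside 1.56%. edgeR without the block and limma-voom with it each called 0 members, beside 0.0117% of tested genes.

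**Figure D2:**
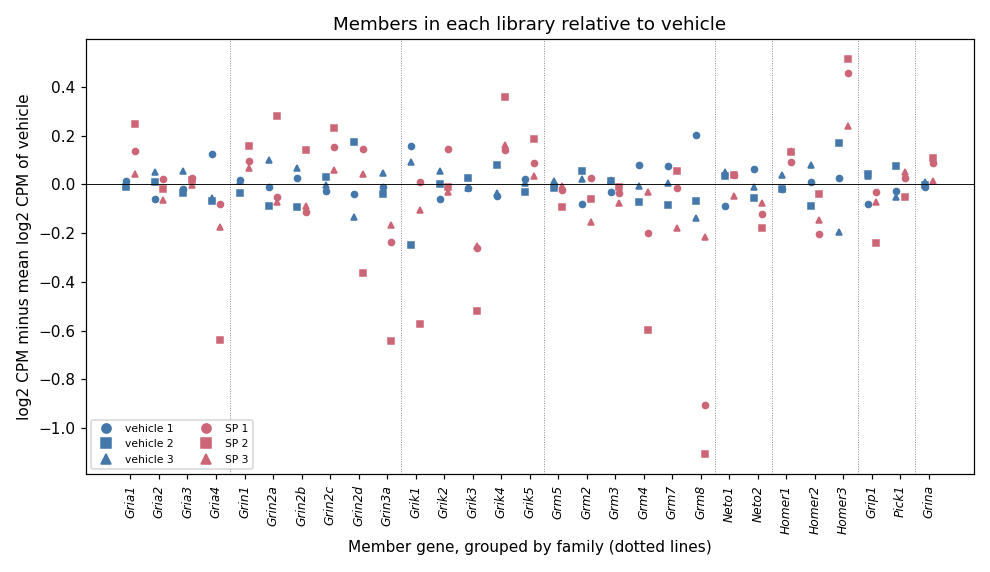
Each member's log2 CPM in each library minus its mean log2 CPM over the 3 vehicle libraries, with blue points for vehicle, red points for SP and a marker shape for each replicate number. The red points of *Homer3* lie above 0 and those of *Grm8*, *Grin3a*, *Grik3* and *Gria4* below it, with SP 2 (squares) often farthest out.

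The AMPA receptor subunits were dominated by *Gria1* and *Gria2*. *Gria1* encodes the subunit that is abundant in hippocampal pyramidal cells. It had 958, 941 and 946 CPM in vehicle 1, 2 and 3 and 1042, 1126 and 978 CPM in SP 1, 2 and 3. Every SP library was above every vehicle library, at a log2FC of 0.14 (SE 0.0670, FDR 0.524) that was 0.085 without replicate 2 and 0.091 without SP 2 alone and no block, as in all values given without a single library. *Gria2* encodes the subunit that makes edited AMPA channels nearly impermeable to calcium. It had 893, 937 and 963 CPM in the vehicle libraries and 944, 917 and 890 CPM in the SP libraries. These groups overlapped, at a log2FC of -0.021 (SE 0.0650, FDR 0.940) that was 0.023 without replicate 3. *Gria4* (ENSMUSG00000025892, chromosome 9 of GRCm38 from 4417896 to 4796234, minus strand) is the least abundant of the 4 subunits here. It had 79.6, 69.7 and 70.3 CPM in the vehicle libraries and 69.2, 46.9 and 64.7 CPM in the SP libraries. SP 2 stood far below the rest while SP 1 lay just under the lowest vehicle library, and the log2FC of -0.29 (SE 0.0891, FDR 0.404) was -0.16 without replicate 2 and -0.13 without SP 2 alone. *Gria3* ranged from 195 to 208 CPM over the 6 libraries.

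Of the summed AMPA subunit level per kb of exon, *Gria1* made up 64.6% ± 2.04, *Gria2* 23.3% ± 1.14, *Gria3* 7.98% ± 0.3 and *Gria4* 4.16% ± 0.786 (SD over the 6 libraries). The share of *Gria1* was 63.1% ± 0.665 in the vehicle libraries and 66.0% ± 1.85 in the SP libraries (SD, n = 3 each). With the longest transcript in place of all exons, *Gria1* made up 56.2% and *Gria2* 27.9%.

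The ratio of *Gria1* to *Gria2* counts within a library does not depend on library scaling. It was 1.07, 1.00 and 0.982 in the vehicle libraries and 1.104, 1.23 and 1.098 in the SP libraries. The groups did not overlap, and the mean log2 ratio was 0.16 higher in the SP libraries (two-sided exact permutation test, p = 0.1, the smallest that 3 against 3 libraries allow, and 0.333 after Benjamini-Hochberg adjustment over 5 ratios). It was higher in 3 of 3 replicate pairs, and the difference was 0.10 without replicate 2. The ratio of *Gria3* to *Gria2* was 0.221, 0.208 and 0.216 against 0.216, 0.221 and 0.224, a difference of 0.035 in the mean log2 ratio (two-sided exact permutation test, p = 0.5) that was 0.071 without replicate 1 and 0.0093 without replicate 2.

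**Figure D3:**
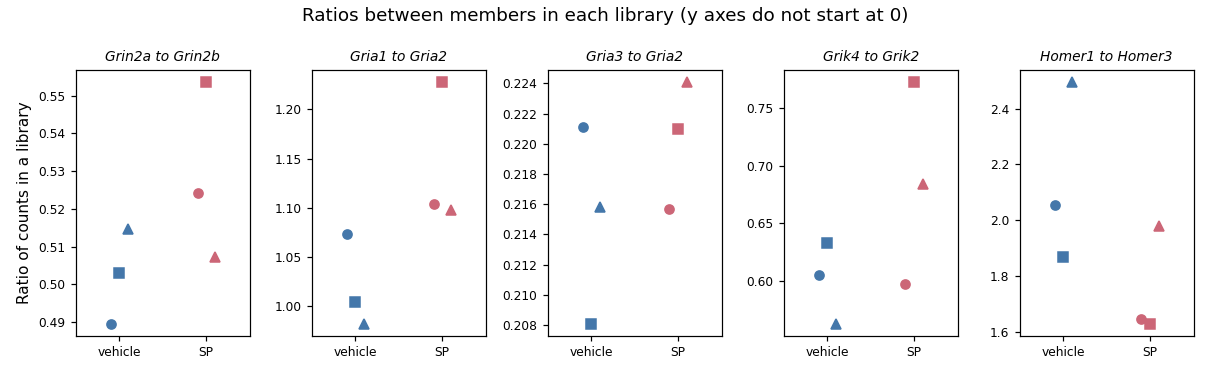
Ratio of the counts of 2 members within each library, with 1 panel for each of 5 ratios, blue for vehicle and red for SP, and circles, squares and triangles for replicates 1, 2 and 3. The y axes do not start at 0, and the groups are apart only for *Gria1* to *Gria2*.

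Among the NMDA receptor genes, *Grin1* encodes the subunit that every NMDA receptor needs. It had 505, 487 and 504 CPM in the vehicle libraries and 532, 557 and 523 CPM in the SP libraries. The groups did not overlap, at a log2FC of 0.11 (SE 0.0572, FDR 0.572) that was 0.064 without replicate 2. *Grin2a* and *Grin2b* encode the main glutamate-binding subunits of forebrain NMDA receptors. *Grin2a* had 303, 287 and 328 CPM against 295, 371 and 290 CPM. Only SP 2 stood above the vehicle libraries, and the log2FC of 0.052 (FDR 0.891) was -0.11 without replicate 2. *Grin2b* had 619, 571 and 636 CPM against 562, 670 and 572 CPM. Its groups overlapped as well, and its log2FC of -0.020 (FDR 0.955) ranged from -0.15 to 0.043 without each replicate in turn. The *Grin2a* to *Grin2b* ratio, which rises during postnatal development, was 0.490, 0.503 and 0.515 in the vehicle libraries and 0.524, 0.554 and 0.507 in the SP libraries. The groups overlapped through SP 3, and the difference of 0.072 in the mean log2 ratio (two-sided exact permutation test, p = 0.2) was 0.039 without replicate 2 and 0.12 without replicate 3.

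Smaller amounts came from the other NMDA subunits. *Grin2c*, best known from cerebellar granule cells and also made by astrocytes, had 43.2, 44.9 and 43.9 CPM in the vehicle libraries and 48.9, 51.7 and 45.8 CPM in the SP libraries. Every SP library was above the vehicle libraries, at a log2FC of 0.15 (SE 0.0608, FDR 0.480). The unadjusted p of *Grin2c* was above 0.05 without replicate 1 and without replicate 2. In DESeq2 with and without the block, and in edgeR with no filter on low counts, it was also above 0.05. *Grin3a* (ENSMUSG00000039579, chromosome 4 from 49661611 to 49845744, minus strand) encodes a subunit that lowers the calcium permeability of NMDA receptors. It had 54.5, 53.4 and 56.8 CPM in the vehicle libraries and 46.6, 35.1 and 48.9 CPM in the SP libraries. The vehicle libraries lay close together and all SP libraries were below them, SP 2 by the most. The log2FC of -0.35 (SE 0.0870, FDR 0.348) was -0.22 without replicate 2 and -0.20 without SP 2 alone. *Grin2d* ranged from 14.3 to 20.8 CPM. Of the summed NMDA subunit level per kb of exon, *Grin1* made up 48.1% ± 1.23, *Grin2b* 21.9% ± 0.968, *Grin2a* 15.6% ± 0.942, *Grin2c* 8.29% ± 0.398, *Grin3a* 3.63% ± 0.676 and *Grin2d* 2.47% ± 0.414 (SD over the 6 libraries). The share of *Grin1* was 64.8% with the longest transcript in place of all exons.

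The kainate receptor genes held members of both directions. *Grik4* (ENSMUSG00000032017, chromosome 9 from 42518135 to 42944493, minus strand) encodes a high-affinity subunit concentrated in CA3 pyramidal cells. It had 54.1, 59.0 and 54.5 CPM in the vehicle libraries and 61.5, 71.5 and 62.4 CPM in the SP libraries. All SP libraries were above the vehicle libraries and SP 2 was highest. The log2FC of 0.22 (SE 0.0559, FDR 0.351) was 0.19 without replicate 2 and 0.15 without SP 2 alone. *Grik3* (ENSMUSG00000001985, chromosome 4 from 125490700 to 125714173, plus strand) encodes a subunit of low glutamate affinity. It had 65.5, 67.4 and 65.4 CPM in the vehicle libraries and 55.2, 46.1 and 55.4 CPM in the SP libraries. Here the SP libraries were all below the vehicle libraries, again with SP 2 farthest out. The log2FC of -0.34 (SE 0.0756, FDR 0.313) was -0.24 without replicate 2 and -0.26 without SP 2 alone.

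*Grik1*, which in the hippocampus is found mainly in interneurons, had 16.9, 12.7 and 16.2 CPM in the vehicle libraries and 15.3, 10.2 and 14.1 CPM in the SP libraries. The groups overlapped, although the SP mouse was lower in 3 of 3 pairs, at a log2FC of -0.22 (SE 0.0839, FDR 0.455). Its unadjusted p was not under 0.05 in edgeR without the block, nor in DESeq2 with or without it, nor without any of the replicates. Leaving out single libraries without the block gave -0.34 without SP 1, -0.056 without SP 2, -0.14 without vehicle 1 and -0.33 without vehicle 2. *Grik5*, the most abundant kainate subunit per kb of exon, ranged from 206 to 240 CPM, with each SP library above the vehicle libraries. *Grik2* ranged from 89.3 to 103 CPM. The *Grik4* to *Grik2* ratio was 0.605, 0.633 and 0.563 in the vehicle libraries and 0.597, 0.773 and 0.684 in the SP libraries, so that the groups overlapped (two-sided exact permutation test, p = 0.3), and the difference of 0.18 in the mean log2 ratio was 0.29 without replicate 1. The auxiliary subunit gene *Neto1* had 156, 170 and 172 CPM against 170, 170 and 160 CPM. Its groups overlapped, and the log2FC of 0.011 (FDR 0.967) was -0.047 without replicate 1. *Neto2* ranged from 39.7 to 47.0 CPM, with each SP library below the vehicle libraries.

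The 6 metabotropic receptor genes had negative log2 fold changes in the fit of all libraries, and 2 of them had an unadjusted p under 0.05. The shared sign did not hold without replicate 3, where *Grm7* had 0.020, and *Grm7* was also positive without SP 3 alone. *Grm8* (ENSMUSG00000024211, chromosome 6 from 27275119 to 28135178, minus strand) encodes a presynaptic receptor of group III that lowers transmitter release. It had 235, 207 and 220 counts in the vehicle libraries and 110, 98 and 168 in the SP libraries, or 10.1, 8.37 and 7.98 CPM against 4.69, 4.07 and 7.54 CPM. SP 1 and SP 2 were far below the vehicle libraries while SP 3 was just under the lowest of them. Its log2FC of -0.72 (SE 0.205, FDR 0.384) was the largest in size among the members, and was -0.54, -0.58 and -1.08 without replicates 1, 2 and 3. *Grm4*, of the same receptor group, had 14.1, 12.7 and 13.4 CPM against 11.7, 8.84 and 13.1 CPM. SP 3 lay among the vehicle libraries, and the log2FC of -0.27 (SE 0.112, FDR 0.484) was -0.15 without replicate 2 and -0.11 without SP 2 alone. The unadjusted p of *Grm4* was above 0.05 without replicate 1 and without replicate 2. The same held in limma-voom with the block and in DESeq2 with and without it. *Grm5* encodes the group I receptor that Homer proteins bind. It had 274, 271 and 277 CPM in the vehicle libraries and 270, 257 and 273 CPM in the SP libraries. SP 2 lay apart as the lowest, and the log2FC of -0.040 (SE 0.0486, FDR 0.823) was -0.022 without replicate 2, -0.015 without SP 2 alone and -0.062 without SP 3 alone. *Grm2* ranged from 45.7 to 52.9 CPM, *Grm3* from 31.0 to 33.1 CPM and *Grm7* from 48.2 to 57.5 CPM.

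Among the scaffolds, *Homer3* (ENSMUSG00000003573, chromosome 8 from 70282827 to 70294361, plus strand) had the lowest FDR of all members. It had 48.7, 53.7 and 41.7 CPM in the vehicle libraries and 65.7, 68.4 and 56.5 CPM in the SP libraries. The groups did not overlap and the SP mouse was higher in 3 of 3 pairs. The log2FC of 0.41 (SE 0.0567, FDR 0.231) stayed between 0.39 and 0.43 without each replicate in turn. Without a single library and without the block it ranged from 0.31 without vehicle 3 to 0.49 without vehicle 2. With DESeq2 and the block the FDR was 0.0332. Exons of *Homer3* overlap those of *Ddx49* on the opposite strand over 874 bp. The library kit keeps the strand, but whether the counting used it is not given in the sources used here, so reads of the pair may be shared. *Ddx49* had 508, 606 and 665 counts in the vehicle libraries and 527, 553 and 534 in the SP libraries. *Homer1*, whose short form is induced by neuronal activity, had 100.1, 100.3 and 104 CPM against 108, 111 and 112 CPM. The difference was small but the groups did not overlap, at a log2FC of 0.12 (SE 0.0497, FDR 0.480). The unadjusted p of *Homer1* was above 0.05 without each replicate in turn. The same held in DESeq2 with the block and in edgeR with no filter on low counts. The counts are per gene and do not tell the forms of *Homer1* apart. *Homer2* ranged from 84.2 to 103 CPM. The *Homer1* to *Homer3* ratio was 2.06, 1.87 and 2.50 in the vehicle libraries and 1.65, 1.63 and 1.98 in the SP libraries, lower in 3 of 3 pairs with overlapping groups (two-sided exact permutation test, p = 0.2).

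The remaining members differed little. *Grip1* ranged from 26.2 to 31.9 CPM and *Pick1* from 41.7 to 45.6 CPM, and *Grina* from 375 to 408 CPM with each SP library above the vehicle libraries. *Pick1* shares 1222 bp of exon with *Gm49486* on the same strand, so its counts are uncertain.

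**Figure D4:**
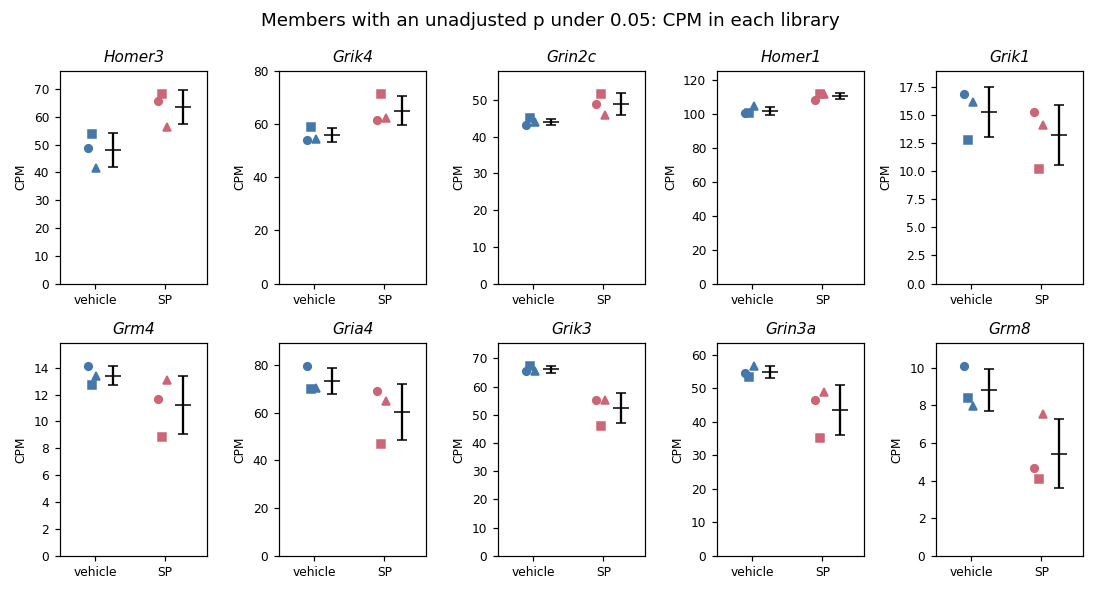
CPM in each library for the 10 members with an unadjusted p under 0.05, with circles, squares and triangles for replicates 1, 2 and 3, and a bar for the mean and SD of each group (n = 3). The groups are apart in *Homer3*, *Grik4*, *Grin2c*, *Homer1*, *Gria4*, *Grik3*, *Grin3a* and *Grm8* and overlap in *Grik1* and *Grm4*.

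Promoter sequences are shown for 2 members that were higher and 2 that were lower in the SP libraries, so that genes of opposite direction can be read side by side. They are RefSeq windows of 300 bases on GRCm38.p6, and 19 of 29 members matched an entry. Of genes with 1 entry, 74.7% have a window from 250 bases before to 50 bases after the RefSeq gene start. The windows of the others are placed differently, and those shown need not fit the gene ends given above. Shown are the members with the lowest unadjusted p in each direction among those with 1 entry and groups that do not overlap: *Homer3* (chr8:70282749-70283048, plus strand), *Grik4* (chr9:42944322-42944621, minus strand), *Grik3* (chr4:125490446-125490745, plus strand) and *Gria4* (chr9:4796185-4796484, minus strand). Capitals mark matches on either strand to a GC box (GGGCGG), a half-site of the cAMP response element (TGACG) or an E-box (CACGTG), and no match overlaps one of another motif.
Homer3: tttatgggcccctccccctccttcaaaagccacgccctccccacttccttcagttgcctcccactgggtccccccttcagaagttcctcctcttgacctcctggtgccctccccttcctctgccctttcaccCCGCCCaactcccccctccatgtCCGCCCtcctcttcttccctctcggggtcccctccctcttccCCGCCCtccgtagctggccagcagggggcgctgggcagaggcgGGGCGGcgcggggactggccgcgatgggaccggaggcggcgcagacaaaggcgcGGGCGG
Grik4: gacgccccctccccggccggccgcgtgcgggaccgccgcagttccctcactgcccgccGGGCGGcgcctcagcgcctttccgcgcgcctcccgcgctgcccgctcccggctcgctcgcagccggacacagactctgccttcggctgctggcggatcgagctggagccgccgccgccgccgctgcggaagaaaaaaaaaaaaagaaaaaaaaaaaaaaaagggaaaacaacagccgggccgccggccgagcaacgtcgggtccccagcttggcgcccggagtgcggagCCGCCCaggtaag
Grik3: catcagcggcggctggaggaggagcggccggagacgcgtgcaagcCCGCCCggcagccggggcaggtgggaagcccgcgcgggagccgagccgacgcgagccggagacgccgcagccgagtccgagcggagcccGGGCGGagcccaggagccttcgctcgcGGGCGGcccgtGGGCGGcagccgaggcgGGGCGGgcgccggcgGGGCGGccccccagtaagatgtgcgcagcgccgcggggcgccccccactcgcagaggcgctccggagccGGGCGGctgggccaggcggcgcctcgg
Gria4: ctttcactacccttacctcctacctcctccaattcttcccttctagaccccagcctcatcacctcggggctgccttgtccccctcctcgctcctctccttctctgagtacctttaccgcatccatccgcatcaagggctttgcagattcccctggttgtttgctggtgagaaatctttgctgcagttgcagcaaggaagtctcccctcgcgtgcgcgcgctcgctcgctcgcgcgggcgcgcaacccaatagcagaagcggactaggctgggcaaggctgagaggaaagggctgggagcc

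*Homer3* held 5 GC boxes, *Grik4* 2, *Grik3* 7 and *Gria4* 0, so genes of both directions held them. The other motifs had 0 matches in these windows. Over all 32851 windows of this length, 35.7% held a GC box, 20.8% the half-site and 7.15% the E-box. Among the 28 windows of the members, 16 held a GC box, 6 the half-site and 1 the E-box. A match is a description of the letters and not evidence of binding.

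Of 42 other genes of glutamate synapses, 0 passed FDR < 0.1 and |log2FC| > 0.3, and 10 had an unadjusted p under 0.05, 6 higher and 4 lower. That is 23.8% of them, beside 10.1% of all tested genes. Without replicate 1 those with such a p numbered 6, beside 5.93% of all genes tested in that fit. DESeq2 with the block called *Gsg1l* (FDR 0.00162) and *Nptx1* (FDR 0.0158), beside 0.211% of all tested genes. DESeq2 without the block called these and *Slc17a6* (FDR 0.0996), beside 0.779%. With no filter on low counts edgeR called *Gsg1l*, *Nptx1* and *Slc17a6*, beside 1.37% of all genes tested in that fit. edgeR called *Gsg1l* without replicate 2, beside 0.0776% of tested genes, and without replicate 3, beside 0.215%. It called *Gsg1l* and *Nptx1* without SP 3 alone and no block, beside 1.56%. Among 12 auxiliary proteins of AMPA receptors, *Cnih2* (log2FC 0.24, FDR 0.338) and *Cacng8* (0.18, FDR 0.416) were higher, while *Shisa9* (-0.21, FDR 0.351) and *Gsg1l* (-0.60, FDR 0.107) were lower. *Gsg1l* was picked out by the study from these same samples. The log2FC of *Cacng8* was 0.12 without replicate 2. Among 8 genes of receptor trafficking and clustering, the neuronal pentraxins *Nptx1* and *Nptx2*, which cluster AMPA receptors, and the pentraxin receptor *Nptxr* had log2 fold changes of 0.32 (FDR 0.326), 0.22 (FDR 0.429) and 0.15 (FDR 0.493). *Nptx1* had 542, 541 and 516 CPM in the vehicle libraries and 681, 751 and 575 CPM in the SP libraries, which did not overlap. The adhesion protein gene *Lrrtm2* had -0.23 (FDR 0.335). Among 12 postsynaptic scaffolds only *Shank3* had such a p, at a log2FC of 0.16 (FDR 0.430), and among 8 genes of glutamate supply and uptake only the vesicular transporter *Slc17a6* did, with -0.48 (FDR 0.308). The 2 delta receptor genes had none.

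Markers of the cell types of the hippocampus were present in every library. *Prox1* of dentate granule cells had at least 1682 counts, *Mpped1* of CA1 cells at least 4031 and *Bok* of CA3 cells at least 687. Each was the most abundant of its list. Several lists differed between single libraries or between the groups. The 5 dentate granule markers summed to 228, 238 and 237 CPM in the vehicle libraries and 300, 358 and 211 CPM in the SP libraries, with 1 of 5 higher at an unadjusted p under 0.05. The 4 CA3 markers summed to 65.6, 68.1 and 57.4 CPM against 69.2, 85.5 and 71.2 CPM, with 2 higher and 1 lower at such a p. The 5 CA1 markers summed to 619, 561 and 594 CPM against 566, 538 and 610 CPM, with 1 higher and 2 lower. The 7 interneuron markers, of which *Gad1* was most abundant, summed to 651, 730 and 670 CPM against 670, 523 and 703 CPM, with *Vip* lower at such a p. Of 5 oligodendrocyte markers, 4 were higher at such a p, beside 4.48% of tested genes. The 5 summed to 927, 886 and 1031 CPM against 1138, 1493 and 1033 CPM, with *Mobp* the most abundant. Without replicate 2 only 2 of these 5, *Cldn11* and *Opalin*, had such a p, and the log2FC of *Mobp* was 0.14 in place of 0.35 and that of *Mal* 0.14 in place of 0.36. Of the dentate granule markers 0 had such a p without replicate 1, and 4 without replicate 3. SP 2 was thus lowest in the interneuron sum and highest in the sums of oligodendrocyte, dentate granule and CA3 markers. It was also lowest in *Grik1*, *Grik3*, *Grm4*, *Grm8*, *Grin3a* and *Gria4* and highest in *Homer3*, *Grik4* and *Grin2c*. The part of cell composition in these members was not tested.

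The 4 markers of oligodendrocyte precursors summed to 160, 141 and 156 CPM against 159, 160 and 150 CPM, the 5 astrocyte markers to 791, 756 and 781 CPM against 828, 832 and 740 CPM, and the 4 microglia markers to 164, 162 and 175 CPM against 164, 177 and 157 CPM, with 0 genes of these lists at an unadjusted p under 0.05. Their most abundant genes were *Gpr17*, *Gfap* and *Csf1r*. The 3 neocortical markers summed to 117, 110 and 112 CPM against 108, 90.3 and 107 CPM, with *Tbr1* the most abundant, and 2 of them were lower at such a p. The 3 thalamic markers, with *Prkcd* the most abundant, summed to 34.0, 52.9 and 34.1 CPM against 40.0, 47.1 and 44.8 CPM, with 0 at such a p.

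**Figure D5:**
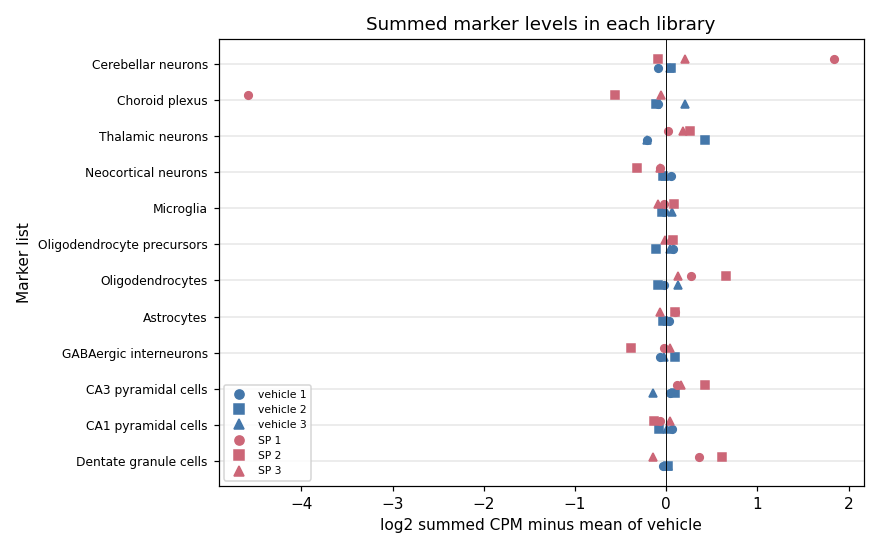
Summed CPM of the marker lists given in the text, in each library, as log2 minus the mean of the vehicle libraries, with blue points for vehicle, red points for SP and a marker shape for each replicate number. SP 1 lies far from the others in the choroid plexus and cerebellar lists, and SP 2 is highest for oligodendrocytes and lowest for interneurons.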

How the data were processed

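The authors trimmed the reads with Trim Galore, aligned them to GRCm38 with STAR and quantified them with Salmon, and deposited estimated counts per gene, which need not be whole (9.77% were not) and were rounded here. Versions of these tools are not given in the sources used here. Of 55421 genes, 17069 passed filterByExpr (minimum count 10, minimum total 15) with the blocked design. A filter on group sizes kept 16707 genes and gave 0 genes called against 5, and 0 members called under both. The choice between them was made after both were seen, and the blocked form was kept because it follows the earlier processing of these data. Testing used edgeR 4.0.16 in R 4.3.3: TMM (factors 0.993 to 1.01), then glmQLFit and glmQLFTest, blocked by replicate number, and Benjamini-Hochberg adjustment over all tested genes. Calls needed FDR < 0.1 and |log2FC| > 0.3. The standard error is the absolute log2 fold change over the root of F, with a median of 0.0906 over tested genes.

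The labels call the replicate number a batch, which is the source of the pairing, and the study's methods adjust for replicates. Deviations from the group means correlated across genes with r = 0.0118, -0.0798 and 0.0385 in same-numbered mice. In mice of different numbers r ranged from -0.112 to 0.0991. Alternatives used limma 3.58.1 (voom) and DESeq2 1.42.0. Ratios were tested by two-sided exact permutation. Gene lengths and overlaps came from GENCODE M21.

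The members and lists were chosen with earlier results of these data known. Values in every library are given for members with an unadjusted p under 0.05, the 3 largest absolute log2 fold changes, 9 members set by name, and members with an outlying library. The last was defined after the data were seen as a gap between the extreme and the next library over 0.625 of the range of all 6 libraries, which *Grm5* met. The result of 1 marker gene is not reported. Of the pathway lists, genes with an unadjusted p under 0.05 are named. The promoters and motifs were also chosen after the values were seen.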

Additional observations from a re-analysis of the deposited data

How the results depend on the processing

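No setting gave more than 5 called members of 29. The members called were 0 in the edgeR fit reported and 0 with no replicate block, relative log expression, at least 10 counts in every library, limma-voom, FDR < 0.05 or no minimum fold change. They were 5 with no filter on low counts, 1 by DESeq2 with the block and 4 by DESeq2 without it. Leaving out a replicate number gave 0 to 1, and leaving out a single library without the block, an alternative chosen after seeing the data like the filter on group sizes, gave 0 to 3, the 3 without SP replicate 3.

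All genes called were 5. They were 2 without the replicate block, 384 with no filter, 0 with at least 10 counts in every library, 2 with limma-voom, 36 and 133 by DESeq2 with and without the block, 0 at FDR < 0.05 and 0 with the filter on group sizes. They ranged from 9 to 36 without each replicate number and from 1 to 274 without a single library. The cause was not tested.

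Members with an unadjusted p under 0.05 numbered 10 with the replicate block, 4 higher and 6 lower, and 10 without it, 6 higher and 4 lower, with *Gria4*, *Grik1* and *Grm4* replaced by *Gria1*, *Grin1* and *Neto2*. They numbered 6, 8 and 8 without replicates 1, 2 and 3, beside 5.93%, 11.4% and 10.2% of all tested genes, and 5 to 12 without a single library, beside 6.99% to 14.9%. Pathway genes with such a p also numbered 10, with 6 to 11 and 10 to 14. The median log2 fold change of the members ranged from -0.048 to 0.020. Of 17 named members, 13 kept their direction in all 17 settings. The exceptions are given by their range without each replicate number and by each reversed value without a single library and without the block: *Gria2* (-0.072 to 0.023, and 0.0021 without vehicle 3), *Grin2a* (-0.11 to 0.16, and -0.066 without SP 2), *Grin2b* (-0.15 to 0.043, and 0.025, 0.0125 and 0.0130 without SP 1, SP 3 and vehicle 3) and *Neto1* (-0.047 to 0.062, and -0.0084, -0.0050 and -0.036 without SP 1, SP 2 and vehicle 1). With the longest transcript in place of all exons, the shares were 56.2% for *Gria1*, 27.9% for *Gria2*, 12.1% for *Gria3*, 64.8% for *Grin1*, 11.4% for *Grin2a*, 13.4% for *Grin2b*, 5.07% for *Grin2c* and 1.80% for *Grin2d*. The directions of all 5 ratios held in every setting run. With 3 mice in each group, exact tests cannot reach 0.05.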
